A study of Homo sapiens with 6 samples.

Results

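Interferons switch on antiviral genes by way of a transcription factor complex with IRF9 as a subunit, which binds the interferon-stimulated response element (ISRE) in their promoters. Among these genes are ADP-ribosyltransferases of the PARP family and the ubiquitin ligase DTX3L, which forms a complex with PARP9. Others encode proteins of PML nuclear bodies, the nuclear structures built on PML. The 10 genes described here are PARP9, DTX3L, PARP14, PARP12, PARP10, SP100, SP110, PML, XAF1 and SAMD9. They were chosen by name as known interferon targets, with XAF1 and SAMD9 being of neither kind, and all 10 were found among 19755 protein-coding genes.

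RNA was sequenced from 3 LPS libraries and 3 control libraries, all labelled 12 h. LPS (lipopolysaccharide) is an endotoxin that forms the surface of Gram-negative bacteria, and the dose was 1000 ng/ml. The labels give the line as EA.hy926, a fusion of an umbilical vein endothelial cell with the lung carcinoma line A549, and also call the cells umbilical vein endothelial cells. Which of these they were cannot be settled here. The genotype field reads WT for controls and LPS-induced for the others, while the treatment field is the same for all 6, so groups follow the titles. Nothing in the labels says that replicates were separate cultures, so p-values reflect library-to-library spread only, and part or all of that could be technical.

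Levels are FPKM, fragments scaled to transcript length and to the library's mapped total, as deposited, with no read depth. Summed FPKM of protein-coding genes lay between 256257 and 264878 in LPS libraries and between 256047 and 260730 in controls. The 12 endothelial markers summed to 472 to 605 FPKM in LPS libraries, against 386 to 508 FPKM in controls, and none of them was at 0 throughout. By an unadjusted limma p under 0.05, 3 of these were higher with LPS and 1, EMCN, was lower. The 12 epithelial and A549 markers summed to 97.8 to 121 FPKM in LPS libraries, against 137 to 146 FPKM in controls, with KRT5 and SFTPC at 0. Of these, 6 were tested and 5 were lower with LPS at an unadjusted limma p under 0.05. KRT7 went the other way and was higher without overlap (log2 change 0.44, unadjusted limma p 0.0635). It was at 18.8, 20.2 and 32.5 FPKM in LPS libraries, against 17.7, 17.4 and 15.9 FPKM in controls. Fibroblast and smooth muscle markers summed to 3784 to 4319 FPKM with LPS and to 3953 to 4296 FPKM in controls. Most of that sum was collagen, with COL1A1 at 1457 to 1565 FPKM in LPS libraries and 1277 to 1548 FPKM in controls, above every endothelial marker listed. Of the 10 tested, 2 (PDGFRA and LUM) were lower with LPS at an unadjusted p under 0.05, and 3 were lower without overlap. Of 14 leukocyte markers, 6 were listed at 0 in every library, the pan-leukocyte gene PTPRC among them, and their sums were 12.4 to 17.5 FPKM with LPS and 8.40 to 14.4 FPKM in controls. Of the 3 leukocyte markers tested, LAPTM5 was higher at an unadjusted limma p of 0.0101. CD14 and CD68 went the other way, with log2 changes of −0.49 and −0.19, and CD14 was lower without overlap. No marker of these lists passed the adjusted threshold. The 6 erythroid markers summed to under 0.5 FPKM in each library. The part of these differences in the results was not tested, and in bulk RNA fewer cells of a type cannot be told apart from less RNA per cell.

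PARP9 and DTX3L lie head to head on chromosome 3 and overlap at their starts. On GRCh38, PARP9 spans positions 122527924 to 122564577 on the minus strand and DTX3L positions 122564338 to 122575203 on the plus strand. Promoter windows of 300 bases, from 250 before a gene's start to 50 after it, were taken from RefSeq on GRCh38.p14 for 8 of the 10 genes. PML and PARP10 had no entry. The windows were searched on both strands for the core of the ISRE, which is GAAA, any 2 bases and GAAA again, and for TTCNNNGAA, the gamma-activated site known from genes that answer to interferon gamma. At least 1 window of PARP9, DTX3L, PARP14, PARP12 and SAMD9, 5 of the 8 genes, held the ISRE core, which 3.57% of all 35116 windows and 4.38% of all 27305 genes with a window also held. The sequences are shown because they place the element relative to each start and show that PARP9 and DTX3L share 1 copy of it. Each is written 5′ to 3′ along its gene's strand, with the ISRE core in capitals (as TTTC, any 2 bases and TTTC where it lies on the opposite strand) and 10 bases on either side.
PARP9, chr3:122564322-122564351, minus strand: gggcgcaaagTTTCAGTTTCgcttccctgg
DTX3L, chr3:122564322-122564351, plus strand: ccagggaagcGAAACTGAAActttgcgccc
PARP14, chr3:122680800-122680829, plus strand: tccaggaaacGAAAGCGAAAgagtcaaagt
PARP12, chr7:140062942-140062971, minus strand: ccggggccgcTTTCGGTTTCgtttcccgcc
SAMD9, chr7:93118096-93118125, minus strand: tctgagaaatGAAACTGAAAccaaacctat

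The PARP9 and DTX3L lines are the same 30 bases read from the opposite strands. Counted to its first base, the core lay 41 bases before the PARP9 start used by that window and 6 bases before the DTX3L start. In PARP14 it began 29 bases, in PARP12 10 bases and in SAMD9 136 bases before the start used by the window. Annotated genes can begin further upstream. In GENCODE 29, DTX3L begins at 122564238 and PARP14 at 122680618, and on the minus strand PARP9 begins at 122564577 and PARP12 at 140063721. Against those starts the core lies inside the gene. Gamma-activated site letters were found in PARP14 and SP110, 2 of the 8 genes, and in 9.38% of all genes with a window. In PARP14 this match lay just upstream of the ISRE core without overlapping it, as cctgggagttTTCCAGGAAacgaaagcga (chr3:122680789-122680817, capitals mark the match). SP100 and XAF1 had neither set of letters in their windows, which says nothing of factors bound there. These matches describe the sequence only.

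All 10 genes had a higher mean with LPS, by a median of 0.27 on the log2(FPKM + 0.5) scale, against a median of −0.011 and a positive sign in 47.8% of the 12068 genes tested. The signs do not count as independent evidence, since the genes were picked as interferon targets with results of these data known. By limma with Benjamini-Hochberg adjustment over all genes tested, 0 of the 10 passed an adjusted p under 0.05, where 0.058% of all genes passed in either direction and 0.0414% as higher with LPS. At an unadjusted p under 0.05, PARP12 alone was higher, 1 of 10 against 5.13% of all genes. In PARP9 and DTX3L all 3 LPS values lay above all 3 control values, 2 of 10 against 8.68% of all genes. With 10 genes, counts of 1 and 2 are near those shares and are not read as a result about the 10. The scale used understates changes of genes with low FPKM.

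**Figure D1:**
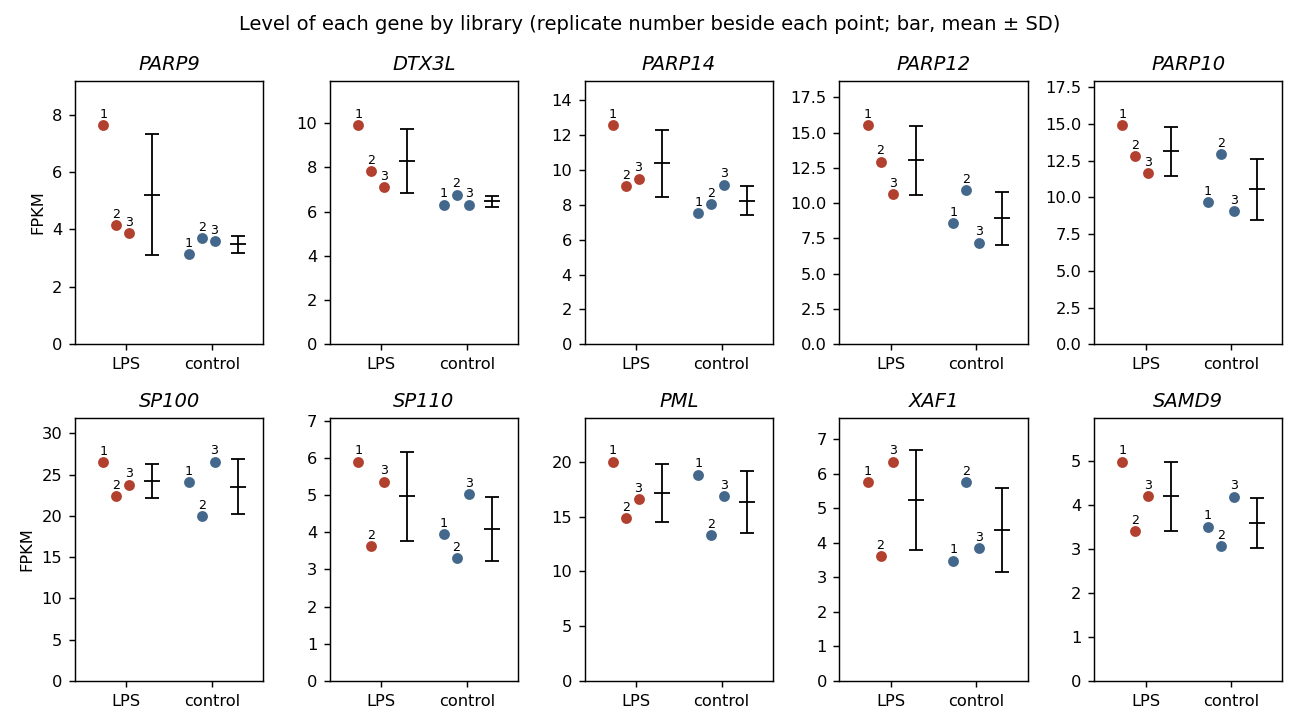
Level in FPKM (vertical axis, starting at 0) of each gene in the LPS libraries (left, red) and the control libraries (right, blue), with the replicate number above each point and the mean ± SD of n = 3 beside them. LPS 1 gave the highest of the 6 values in 8 genes, and the groups did not overlap in PARP9 and DTX3L.

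PARP9 has macrodomains that bind ADP-ribose, and in cells it acts with DTX3L. It stood at 7.64, 4.14 and 3.87 FPKM in LPS 1, 2 and 3, against 3.15, 3.70 and 3.58 FPKM in control 1, 2 and 3. The groups did not overlap, but LPS 2 and LPS 3 were close to the highest control and LPS 1 stood far above all others. Its mean was 5.21 ± 2.10 FPKM with LPS and 3.48 ± 0.291 FPKM in controls (SD, n = 3 each). This gave a log2 change of 0.47 (SE 0.24, 95% interval −0.096 to 1.03, limma adjusted p = 0.543), and without LPS 1 it was 0.18.

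DTX3L, a ligase of the Deltex family that puts ubiquitin on histones and other proteins, was measured at 9.92, 7.82 and 7.11 FPKM in LPS 1, 2 and 3. The controls were at 6.31, 6.77 and 6.31 FPKM. Again every LPS library was above every control, and the order of the LPS libraries was that seen for PARP9. Its log2 change came to 0.32 (SE 0.14, 95% interval −0.010 to 0.66, limma adjusted p = 0.494), and it was 0.19 without LPS 1. Reads from the overlap of both genes cannot be assigned without strand, which the sources used here do not give for the counting.

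Within each library the ratio of PARP9 to DTX3L in FPKM was 0.770, 0.529 and 0.544 in LPS 1, 2 and 3 and 0.499, 0.547 and 0.568 in control 1, 2 and 3. It was thus highest in LPS 1, while the other 5 libraries lay close together. Likeness to PARP9 was also ranked over all tested genes, by the root-mean-square distance between profiles of the 6 log2 values less their control mean. DTX3L was the 26th nearest of 12067 genes to PARP9 (distance 0.19) and PARP9 the 738th nearest to DTX3L. PARP14 stood 36th from PARP9 and 42nd from DTX3L. The ranks are a description over 6 libraries that share their controls.

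PARP14 lies further along the same stretch of chromosome 3, at positions 122680839 to 122730840, and is a mono-ADP-ribosyltransferase with macrodomains. It was at 12.6, 9.07 and 9.51 FPKM in LPS 1, 2 and 3 and at 7.53, 8.04 and 9.17 FPKM in control 1, 2 and 3. LPS 2 was just below control 3, so the groups overlapped. Its log2 change was 0.31 (SE 0.15, 95% interval −0.050 to 0.66, limma adjusted p = 0.530), and 0.17 without LPS 1. Between DTX3L and PARP14 sits PARP15, another macrodomain PARP, which was listed at 0 to 0.0543 FPKM in LPS libraries and at 0 to 0.0151 FPKM in controls. On the far sides of the cluster, KPNA1, an importin, had 15.4, 16.7 and 28.5 FPKM in LPS 1, 2 and 3 and 14.3, 23.4 and 30.9 FPKM in control 1, 2 and 3. HSPBAP1 had 0.991, 1.09 and 0.938 FPKM with LPS, all below the control values of 1.15, 1.21 and 1.86 FPKM (log2 change −0.32, limma adjusted p = 0.584).

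PARP12, a mono-ADP-ribosyltransferase with CCCH zinc fingers, showed the largest log2 change of the 10 with all libraries weighted alike. PARP9 was above it with library weights (0.60 against 0.59), without LPS 2 (0.59 against 0.52) and without control 3 (0.49 against 0.39). PARP14 and XAF1 were among those above PARP12 with coding transcripts summed. It was at 15.5, 12.9 and 10.6 FPKM in LPS 1, 2 and 3, against 8.59, 10.9 and 7.20 FPKM in control 1, 2 and 3. Only LPS 3 against control 2 broke the separation. Its mean was 13.0 ± 2.46 FPKM with LPS and 8.91 ± 1.90 FPKM in controls (SD, n = 3 each), a log2 change of 0.53 (SE 0.19, 95% interval 0.085 to 0.97). The unadjusted limma p was 0.0254 and the adjusted p = 0.403, over a range of 0.335 to 0.909 under the alternatives. The unadjusted p was no longer under 0.05 without LPS 1, LPS 2, control 1 or control 3. From its coding transcripts alone, which are a small share of its level, the change was 0.19. Its flanking genes TBXAS1 and KDM7A had log2 changes of 0.11 and 0.21, and neither passed the test.

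PARP10, a mono-ADP-ribosyltransferase first found as a partner of MYC, was at 14.9, 12.8 and 11.7 FPKM in LPS 1, 2 and 3 and at 9.68, 12.9 and 9.05 FPKM in control 1, 2 and 3. Control 2 reached into the LPS range, as it did for PARP12. The log2 change was 0.31 (SE 0.16, 95% interval −0.066 to 0.69, limma adjusted p = 0.544). PARP10 overlaps GRINA on the opposite strand. That gene was at 35.8, 23.7 and 35.8 FPKM in LPS libraries, against 32.2, 36.5 and 21.2 FPKM in controls, so the PARP10 level is uncertain to the extent that reads were shared.

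**Figure D2:**
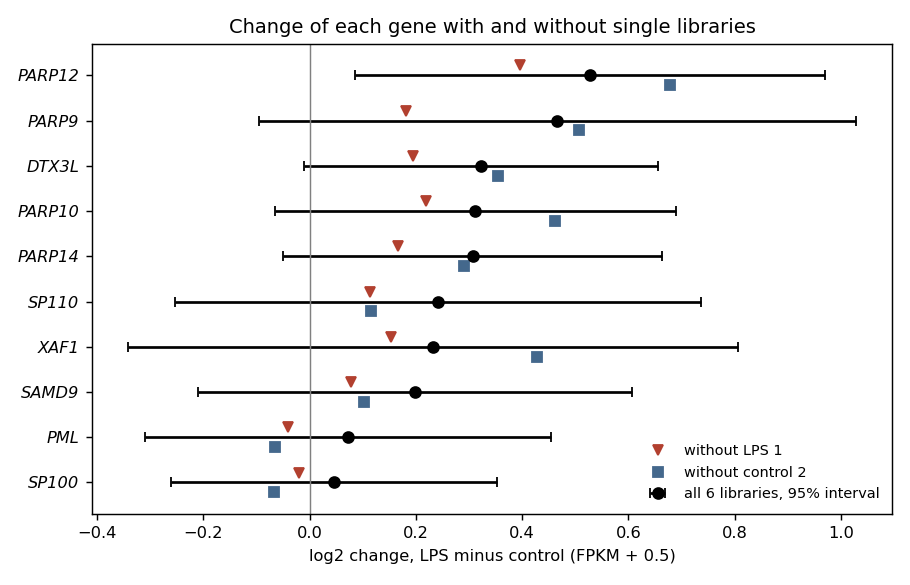
Log2 change on the FPKM + 0.5 scale, LPS minus control (horizontal axis), of each gene, with its limma 95% interval (black), without LPS 1 (red triangles) and without control 2 (blue squares). PARP12 is the 1 gene whose interval lies above 0, and the changes of SP100 and PML turn negative when either library is left out.

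SP100 and PML, both proteins of PML nuclear bodies, were the most abundant of the 10 and had the smallest log2 changes. SP100 overlaps an antisense gene, AC010149.1, at 1.10 to 2.77 FPKM with LPS and 1.32 to 1.76 FPKM in controls. SP100 was at 26.5, 22.4 and 23.8 FPKM in LPS 1, 2 and 3 and at 24.1, 20.0 and 26.6 FPKM in control 1, 2 and 3. PML was at 20.0, 14.9 and 16.6 FPKM in LPS 1, 2 and 3 and at 18.9, 13.3 and 16.9 FPKM in control 1, 2 and 3. In both genes the groups overlapped broadly. The log2 changes were 0.045 for SP100 (SE 0.13, 95% interval −0.26 to 0.35) and 0.072 for PML (SE 0.16, 95% interval −0.31 to 0.45), with limma adjusted p of 0.931 and 0.907. The signs are not settled, since without LPS 1 the changes were −0.020 and −0.042 and without control 2 they were −0.067 and −0.065.

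SP110, a nuclear body protein related to SP100, was at 5.91, 3.63 and 5.37 FPKM in LPS 1, 2 and 3 and at 3.96, 3.31 and 5.03 FPKM in control 1, 2 and 3. LPS 2 lay inside the control range. LPS against control gave a log2 change of 0.24 (SE 0.21, 95% interval −0.25 to 0.74, limma adjusted p = 0.736). It was 0.11 without LPS 1 and also without control 2, 0.38 without control 3 and 0.43 without LPS 2. It overlaps SP140 on the opposite strand, which was at 0.339, 0.597 and 0.850 FPKM in LPS libraries and at 0.375, 0.372 and 0.390 FPKM in controls. SP140L, the paralog next to SP100 on chromosome 2, had 1.55, 1.51 and 1.85 FPKM with LPS, against 1.83, 1.58 and 2.13 FPKM in controls.

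XAF1 binds the caspase inhibitor XIAP and opposes its action. It was at 5.76, 3.60 and 6.35 FPKM in LPS 1, 2 and 3, against 3.48, 5.75 and 3.85 FPKM in control 1, 2 and 3. Each group held 1 library at the level of the other, LPS 2 among the LPS libraries and control 2 among the controls. The log2 change was 0.23 (SE 0.25, 95% interval −0.34 to 0.81, limma adjusted p = 0.776). It was 0.088 without LPS 3, 0.10 without control 1 and 0.15 without LPS 1, and 0.46 without LPS 2 and 0.43 without control 2.

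SAMD9, a cytoplasmic factor that restricts poxviruses, was at 4.98, 3.40 and 4.19 FPKM in LPS 1, 2 and 3 and at 3.50, 3.05 and 4.18 FPKM in control 1, 2 and 3. LPS 2 was below the median control and LPS 3 was level with control 3. The log2 change was 0.20 (SE 0.18, 95% interval −0.21 to 0.61, limma adjusted p = 0.738). It was 0.079 without LPS 1, 0.10 without control 2, 0.30 without control 3 and 0.32 without LPS 2. Its paralog SAMD9L, the next gene on chromosome 7, was at 5.39, 2.88 and 4.51 FPKM with LPS and at 3.02, 2.85 and 2.88 FPKM in controls. Of the 3 paralogs listed, SAMD9L and SP140L were tested and 0 passed the adjusted or the unadjusted threshold. SAMD9 and SAMD9L had the same order of LPS libraries, with LPS 2 at or near the control level. CDK6, the gene on the other side, was at 22.9, 16.3 and 26.4 FPKM with LPS, against 16.1, 14.3 and 19.1 FPKM in controls (log2 change 0.38, limma adjusted p = 0.530).

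By mean level over all 6 libraries the 10 genes ran from SP100 through PML, PARP10, PARP12, PARP14 and DTX3L to XAF1, SP110, PARP9 and SAMD9. FPKM is scaled to length, so levels can be set side by side. In LPS libraries SP100 lay above PML and DTX3L above XAF1 without overlap, and all other neighbours in that order overlapped. In controls the same pairs were separate, PML also lay above PARP10 and PARP14 above DTX3L without overlap, and the others overlapped.

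On GRCh38, PARP12 lies on chromosome 7 at positions 140023744 to 140063721 and SAMD9 on the same chromosome at 93099513 to 93118023, both on the minus strand. SP100 (230415942 to 230545606, plus strand) and SP110 (230167293 to 230225729, minus strand) are on chromosome 2. PARP10 spans 143977153 to 144012772 of chromosome 8 (minus strand), PML 73994673 to 74047812 of chromosome 15 and XAF1 6755447 to 6775647 of chromosome 17 (both plus strand). Of the nearest coding genes not yet named, PLEC beside PARP10, CAB39 beside SP100 and STOML1 beside PML had log2 changes of 0.085, −0.34 and 0.067, and none of these passed the adjusted threshold. The other 4, SLC16A14, GOLGA6A, SLC13A5 and FBXO39, were under 0.5 FPKM on average and were not tested.

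The libraries differed within the LPS group. Relative to the control mean, the 10 genes had median log2 deviations of 0.50, 0.040 and 0.18 for LPS 1, 2 and 3 and of −0.031, 0.016 and 0.051 for control 1, 2 and 3. LPS 1 was the highest of the 6 libraries in 8 genes, the exceptions being XAF1, highest in LPS 3, and SP100, highest in control 3. In PARP9, DTX3L, PARP12 and PARP10, LPS 2 stood above LPS 3. In PARP14, SP100, SP110, PML, XAF1 and SAMD9 the order was the reverse. Control 2 was the lowest control in SP100, SP110, PML and SAMD9 and the highest in PARP9, DTX3L, PARP12, PARP10 and XAF1. Without LPS 1 the median log2 change of the 10 genes was 0.16, and over all 6 single-library omissions it ranged from 0.16 to 0.37.

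**Figure D3:**
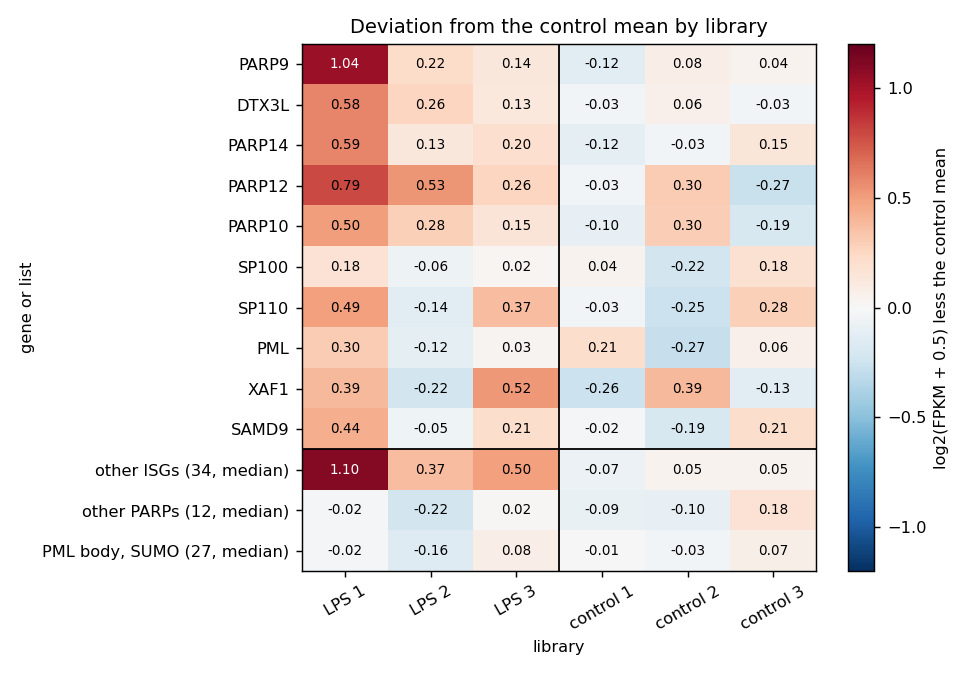
Deviation of log2(FPKM + 0.5) from the control mean (colour and printed value) for each of the 10 genes and for the medians of 3 other lists, by library (columns, LPS left, control right). LPS 1 carries the largest value in 8 of the 10 genes and in the median of the 34 other interferon-stimulated genes, which is 1.10 there.

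The other interferon-stimulated genes had a median log2 change of 0.61. Of 40 listed, 34 were tested, 31 were positive, 19 were higher at an unadjusted p under 0.05, and in 19 the LPS values all lay above the controls. By limma adjusted over all genes 2 rose, the antiviral GTPase MX1 and the ubiquitin-like modifier ISG15, each at an adjusted p of 0.0344. These calls do not hold under every setting, since 0 genes of the whole table passed without control 2, without LPS 2, without the filter on low values or with the replicate block. MX1 was at 22.4, 8.68 and 9.56 FPKM in LPS libraries, against 0.815, 1.12 and 0.608 FPKM in controls. ISG15 was at 65.6, 48.9 and 48.5 FPKM with LPS, against 19.0, 15.3 and 17.1 FPKM in controls. The list's median deviation reached 1.10 in LPS 1, above 0.37 and 0.50 for the other LPS libraries. The difference between this list and the 10 genes was not tested. The ISRE core was in the promoter windows of 22 of the 29 of these genes that had one.

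Upstream of these genes, 0 of 9 interferon ligand genes reached the 0.5 FPKM mean needed for testing. Interferon beta (IFNB1) was at 0.0633 FPKM in LPS 1 and listed at 0 in the other 5 libraries. Of 8 tested genes of interferon receptors and their kinases 0 passed the adjusted threshold, 1 was at an unadjusted p under 0.05 and 6 had a positive change. The receptor chain IFNAR1 was at 11.5, 9.59 and 11.6 FPKM with LPS, against 4.06, 7.69 and 7.44 FPKM in controls (unadjusted limma p 0.0116, adjusted p = 0.339). Among 8 listed transcription factors and regulators of the response, 0 of 7 tested passed, 2 were higher at an unadjusted p under 0.05, 5 were positive, and the median log2 change was 0.29. IRF7 was at 7.19, 5.31 and 6.41 FPKM in LPS libraries, against 2.84, 3.81 and 2.96 FPKM in controls. IRF9, the DNA-binding subunit of the ISRE complex, was at 8.10, 5.11 and 5.38 FPKM with LPS, against 2.68, 2.99 and 4.87 FPKM in controls. In both genes every LPS library was above every control, but neither passed the adjusted threshold (limma adjusted p = 0.173 and 0.364).

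PARP family genes outside the 10 had a median log2 change of −0.069, with 12 of 13 tested, 3 positive, 9 negative and 0 past the adjusted or the unadjusted threshold. PARP1, the DNA break sensor that makes poly(ADP-ribose), was at 15.5, 13.5 and 14.1 FPKM with LPS, against 16.0, 14.2 and 17.0 FPKM in controls. PARP4, the vault PARP, was at 13.6, 12.3 and 13.5 FPKM with LPS, against 14.3, 12.8 and 16.8 FPKM in controls. Both genes overlapped between the groups. No window of the 11 genes of this list that had one held the ISRE core. The hydrolases that remove ADP-ribose gave 0 calls among 6 tested, 0 also at an unadjusted p under 0.05, with a median of −0.0031. MACROD1, a macrodomain hydrolase, was at 11.1, 11.8 and 5.90 FPKM with LPS, against 8.79, 10.5 and 10.3 FPKM in controls, and ADPRHL2 was at 7.09, 6.12 and 7.35 FPKM with LPS, against 5.83, 7.42 and 6.84 FPKM in controls. These groups overlapped as well.

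Of the other Deltex ligases, relatives of DTX3L, 3 were tested and 0 passed the adjusted threshold. DTX4 was at 2.25, 0.976 and 2.08 FPKM in LPS libraries, against 0.624, 0.414 and 0.624 FPKM in controls, with no overlap (log2 change 1.06, SE 0.26, unadjusted limma p 0.00397, adjusted p = 0.262). Among 27 PML body and SUMO pathway genes 0 passed, 11 were positive and the median was −0.048. The 1 gene at an unadjusted p under 0.05 was ISG20, an interferon-induced exonuclease found in nuclear bodies, at 1.72, 1.31 and 2.08 FPKM with LPS, against 0.697, 0.853 and 0.703 FPKM in controls (unadjusted limma p 0.00228, adjusted p = 0.231). The 10 genes of the XIAP pathway had a median of 0.091, with 0 calls and 0 genes at an unadjusted p under 0.05. Its most abundant members were BIRC6, at 19.7, 18.9 and 25.4 FPKM with LPS and 21.1, 19.6 and 26.1 FPKM in controls, and DIABLO, at 22.5, 15.2 and 13.1 FPKM with LPS and 14.0, 15.4 and 15.9 FPKM in controls.

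**Figure D4:**
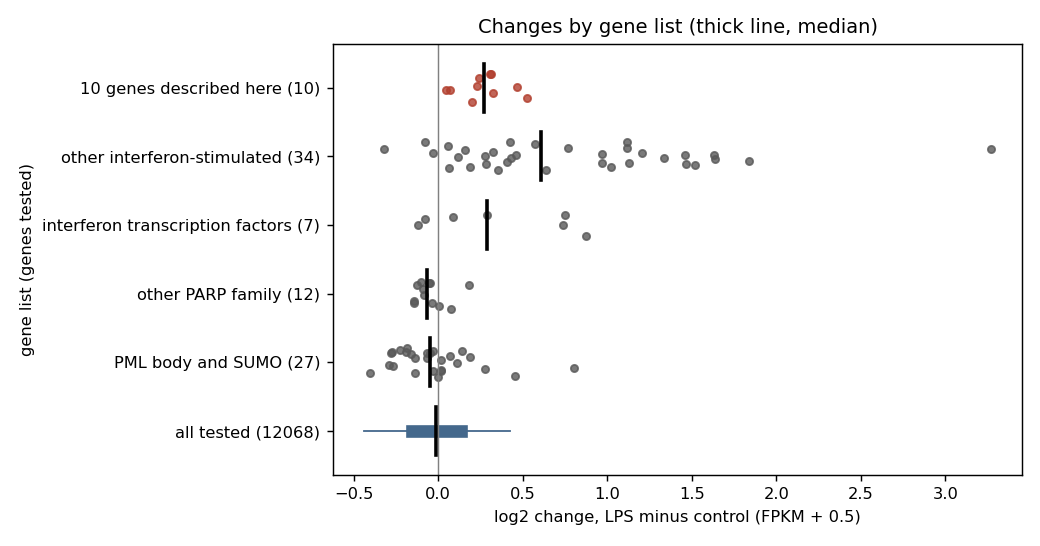
Log2 change on the FPKM + 0.5 scale, LPS minus control (horizontal axis), of single genes (points) by list, with list medians (thick lines). For all 12068 tested genes the bar spans the middle 50% and the thin line the 5th to 95th percentiles. The 10 genes described here have a median of 0.27, the other interferon-stimulated genes 0.61 and the other PARP genes −0.069.

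Gene values are sums over transcripts, within a tolerance of 0.001 FPKM, and the 10 genes have 135 annotated or assembled transcripts, of which 26 were at 0 throughout. Of these, 71 are in the protein-coding transcript set, and 24 had a mean of at least 0.5 FPKM and were tested. By limma 0 of the 24 passed the adjusted threshold, where 0.126% of all 20563 transcripts did. In 5 the LPS values all lay above the controls, where 6.69% of all tested transcripts did so, and 1 of the 24 was at an unadjusted p under 0.05, where 3.24% were higher by that rule. Over all transcripts, 35 of the 135 were tested, 0 passed against 0.098% of all transcripts, 1 was at an unadjusted p under 0.05 against 2.85%, and 5 did not overlap against 6.18%.

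That 1 transcript was XAF1-202, the most abundant XAF1 transcript. It was at 2.08, 1.52 and 3.02 FPKM in LPS 1, 2 and 3, against 0.901, 0.846 and 0.649 FPKM in control 1, 2 and 3. The groups were separate here, although they overlapped at the gene level. It differed by 1.03 on the log2 scale (SE 0.28, 95% interval 0.34 to 1.71), with an unadjusted limma p of 0.0110 and an adjusted p = 0.591. Coding transcripts made up 41.1%, 47.4% and 57.9% of the XAF1 level in LPS 1, 2 and 3, against 35.8%, 22.7% and 23.2% in control 1, 2 and 3. The high gene value of control 2 lay in other transcripts, with XAF1-219, which is not in the coding set, at 2.29 FPKM there, against 0.661 to 1.37 FPKM in LPS libraries and 0.835 and 0.255 FPKM in control 1 and control 3. With coding transcripts summed per gene, a comparison added after seeing the data, XAF1 had a log2 change of 0.86 (SE 0.26, limma adjusted p = 0.406). In that comparison 0 of the 10 genes passed the adjusted threshold against 0.0178% of all genes, 1 was at an unadjusted p under 0.05 against 4.93%, and 4 did not overlap against 8.55%.

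The remaining transcripts of the 10 genes varied in which isoform held the level. DTX3L had a single expressed transcript, DTX3L-201. PARP9-205 was at 6.53, 2.75 and 0 FPKM in LPS 1, 2 and 3 and at 1.04, 1.63 and 0.774 FPKM in control 1, 2 and 3. In LPS 3, where it was listed at 0, PARP9-204 held 2.58 FPKM, while it was listed at 0 in LPS 1, LPS 2 and control 1. PARP9-202, whose annotated start at position 122564315 lies beside the shared ISRE core, was at 0.801, 0.926 and 1.11 FPKM with LPS, all above the control values of 0.493, 0.550 and 0.559 FPKM (log2 change 0.48, SE 0.23, limma adjusted p = 0.741). PARP9-201 and PARP9-205 start at position 122564577, so in them the core lies past the annotated start. Together they held 6.53, 3.19 and 0.0791 FPKM in LPS 1, 2 and 3 and 2.45, 2.21 and 0.775 FPKM in control 1, 2 and 3.

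PARP14-202, the most abundant PARP14 transcript, was at 12.2, 8.15 and 7.37 FPKM in LPS 1, 2 and 3, all above the control values of 6.17, 0.0186 and 4.58 FPKM. The low value of control 2 came with 4.37 FPKM of PARP14-201 and 2.74 FPKM of PARP14-207, both listed at 0 in the LPS libraries, so the log2 change of 1.87 (SE 1.01, limma adjusted p = 0.769) moves with how that library was divided between isoforms. PARP12 was held mostly by PARP12-207, which is not in the coding set, at 12.0, 8.97 and 7.21 FPKM with LPS and at 6.59, 7.66 and 4.19 FPKM in controls. Its coding isoform PARP12-201 was at 1.83, 0.896 and 0.184 FPKM with LPS and at 1.23, 0.534 and 0.531 FPKM in controls.

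**Figure D5:**
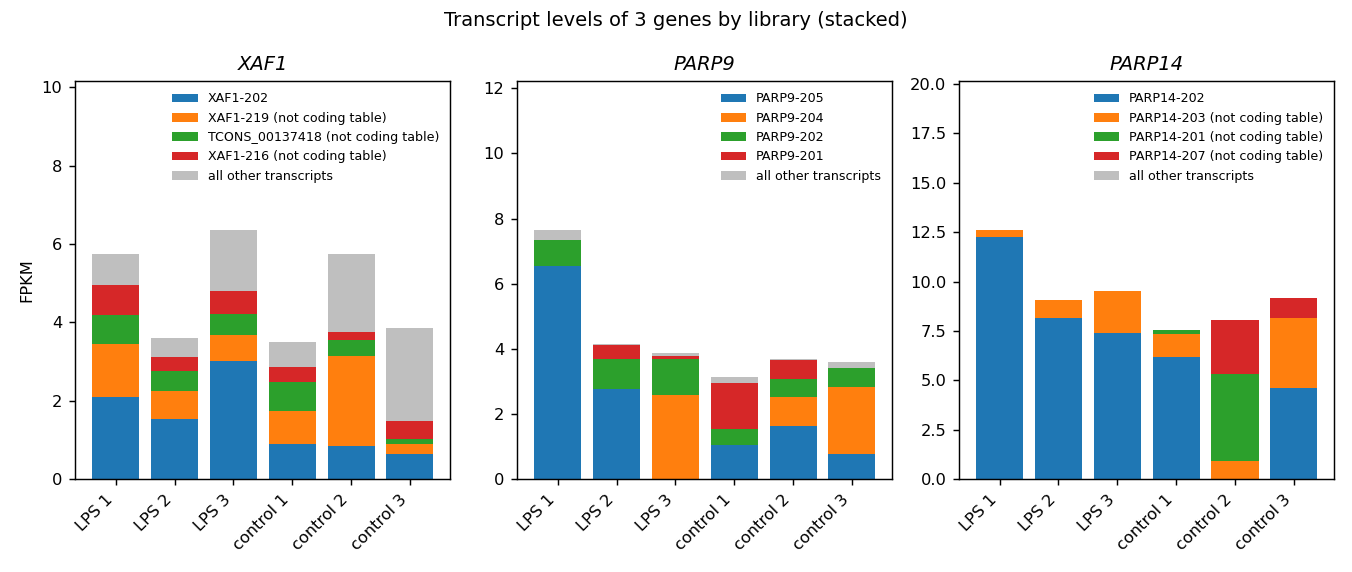
Stacked transcript levels in FPKM of XAF1, PARP9 and PARP14 by library (LPS left, control right), with the 4 most abundant transcripts in colour and the rest in grey. XAF1-202 is larger in each LPS library than in each control, while the isoform that holds PARP9 and PARP14 changes between libraries of 1 group.

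The most abundant coding isoforms of the other genes overlapped between groups. SP100-203 was at 14.8, 8.59 and 10.3 FPKM with LPS and at 11.4, 10.0 and 8.57 FPKM in controls. SP110-202 was at 1.73, 1.30 and 2.14 FPKM with LPS, against 1.70, 1.15 and 2.20 FPKM in controls. Neither gene's leading isoform separated the groups. PML-215 was at 5.74, 4.99 and 3.51 FPKM with LPS, against 5.05, 4.65 and 4.60 FPKM in controls. SAMD9-201 was at 4.68, 3.35 and 4.19 FPKM with LPS, against 3.16, 2.13 and 4.04 FPKM in controls. PARP10-205 was at 5.55, 5.42 and 4.62 FPKM with LPS, against 4.43, 5.55 and 0.0464 FPKM in controls. In control 3, where it was near 0, PARP10-201 and PARP10-203 held 3.07 and 2.10 FPKM.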

How the data were processed

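The authors deposited FPKM values per gene and per transcript. HISAT2 and StringTie appear, with no version, among the tools of the submitters' processing notes, which give the build as mm9. However, the deposited identifiers are human Ensembl at GRCh38 coordinates, so GRCh38 is used, with GENCODE 29 for strands and overlaps. Transcripts count as coding where they are in the deposited protein-coding transcript set. How strand was handled in counting, and how deep each library was, is not given in these sources. The test, on log2(FPKM + 0.5) and for genes whose 6-library mean reached 0.5 FPKM, was limma 3.58.1 in R 4.3.3 (group alone, eBayes with trend, two-sided, Benjamini-Hochberg over all 12068 genes or, separately, 20563 coding transcripts), and the fit was tested on simulated data. The 10 genes and the gene lists were chosen with earlier results of these data known.

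From each list the text names genes past the adjusted threshold, else up to 2 at an unadjusted p under 0.05, else the 2 most abundant. For each of the 10 genes it names the transcript of highest mean, any of at least 1 FPKM at an unadjusted p under 0.05, and the nearest coding gene on each side. PARP12-201, the isoforms listed beside PARP9-205, PARP14-202, PARP10-205 and XAF1-202, and SP140, were named after values were seen. DIABLO has 2 gene identifiers, of which the more abundant was used. Promoters were from RefSeq (GRCh38.p14). Alternatives covered pseudocounts, filters, scaling, a replicate block, library weights and omission of each library. A gene of the transcription factor list is not reported here, and the list's values were computed without it.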

Additional observations from a re-analysis of the deposited data

How the results depend on the processing

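Over 14 other settings and the use of summed coding transcripts, chosen after seeing the data, 0 of the 10 genes passed the adjusted threshold, and 8 of the 10 kept a positive log2 change. SP100 and PML did not, at −0.0667 and −0.0651 without control 2 and −0.0200 and −0.0415 without LPS 1, over omission ranges of −0.0667 to 0.136 for SP100 and −0.0651 to 0.180 for PML. The median log2 change of the 10 ran from 0.16 to 0.37. The count at an unadjusted limma p under 0.05 was 4 with library weights, where 11.1% of all genes passed in either direction. It ranged from 0 to 3 when single libraries were left out, where 7.59% to 10.1% of all genes passed in either direction. The count without overlap between groups was 4 with summed coding transcripts (PARP9, PARP14, DTX3L and XAF1), where 8.55% of all genes were higher without overlap. It ranged from 2 to 6 over the omissions. Smaller groups separate more easily, and the share over all genes is not given for the omissions, so these counts are not read as a result about the 10.

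Genes called over the whole table, 7 with all libraries, were 0 without a filter, 0 with the replicate block, 2 with summed coding transcripts and 0 to 8 over the omissions. The counts of 0 came with 1563 (no filter), 1451 (block), 1046 (without control 2) and 1213 (without LPS 2) genes at an unadjusted limma p under 0.05. Deviations of same-numbered libraries correlated across genes at 0.0175, 0.105 and 0.0605. Each LPS library correlated best with the control of its own number, although control 1 correlated better with LPS 3 (0.0228). Whether same-numbered libraries were handled together was not tested. In the all-transcript table, also added after seeing the data, 0 transcripts of the 10 genes were called, with 1 at an unadjusted p under 0.05. Without read depth, no counting error can be given for low values such as single isoforms.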

Other observations

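The tested genes outside the 10 whose profile over the 6 libraries lay nearest to the median profile of the 10 were ABCB9, ZNF710, EIF2AK2, RALGDS and EXTL3, at root-mean-square distances of 0.039 to 0.059 on the log2 scale. EIF2AK2 encodes PKR, the interferon-induced kinase activated by double-stranded RNA. It was at 15.9, 12.5 and 13.0 FPKM in LPS 1, 2 and 3, against 10.7, 11.0 and 12.0 FPKM in control 1, 2 and 3, with a log2 change of 0.28 (limma adjusted p = 0.492). ABCB9, a lysosomal peptide transporter related to TAP, was at 7.08, 5.15 and 5.65 FPKM with LPS, against 4.48, 4.94 and 4.93 FPKM in controls (limma adjusted p = 0.543). In both genes the LPS libraries lay above the controls, as in 8.68% of all tested genes. However, they were picked on these same 6 values by nearness to a profile raised in LPS 1. Their separation is therefore partly set by the choice and cannot be weighed against that share. None of the 5 passed the adjusted threshold, and the ranking describes these 6 libraries only.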
